A study of Mus musculus with 18 samples.

Results

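The genes of major histocompatibility complex (MHC) class I presentation were examined in mouse macrophages. They were taken by symbol: every H2-K, H2-D, H2-Q, H2-T and H2-M gene with a number and no pseudogene suffix, B2m, Tap1, Tap2, Tapbp, Tapbpl, Psmb8, Psmb9, Psmb10, Psme1, Psme2, Erap1, Nlrc5, Cd1d1 and Mr1. This gave 31 of 21380 genes, 17 of them H2 genes, and 22 lay on chromosome 17. A minimum of 10 normalized counts in at least 3 libraries was passed by 28 members. H2-Q1 (0 to 5.5 normalized counts over all libraries), H2-Q2 (0 to 7.86) and H2-T3 (0 to 3.48) did not pass it and were not tested.

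Macrophages were grown from the bone marrow of Ldha knockout (KO) and wild-type (WT) animals for 7 days with 30 ng/mL macrophage colony-stimulating factor and 15% serum. Ldha encodes the A chain of lactate dehydrogenase, which interconverts pyruvate and lactate. Cells of each of 6 animals were left untreated, or given recombinant mouse interferon gamma (IFN-gamma) or interleukin 4 (IL-4) for 24 h. The 6 groups were WT untreated, KO untreated, WT IFN-gamma, KO IFN-gamma, WT IL-4 and KO IL-4, each with 3 libraries from separate animals. The sources used here give no strain, sex, age or means of deleting Ldha.

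Class I molecules show peptides from inside the cell to CD8+ T cells. The proteasome cuts proteins into peptides, the TAP transporter carries them into the endoplasmic reticulum, ERAP1 trims them, and tapasin helps load them on a heavy chain paired with beta-2-microglobulin. IFN-gamma is the classical inducer of this pathway, acting in part through IRF1 and the transactivator NLRC5, and it exchanges catalytic subunits of the proteasome for those of the immunoproteasome.

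Between 9.77 M and 49.5 M reads per library were assigned to genes (median 30.9 M). Values below are normalized counts, that is, read counts divided by a size factor for each library, and a change is a log2 difference ± SE on the log2(count + 1) scale from limma. A gene was called when its adjusted p, over the 14288 genes tested, was under 0.05. Ldha was lower in every KO group by limma (adjusted p = 2.29e-11 or less; 2327 against 11618 normalized counts untreated, 9543 against 37282 with IFN-gamma, 4183 against 23855 with IL-4, means of 3). Lyz2, the lysozyme gene of myeloid cells, was also nearly lost in KO libraries (784 against 631574 normalized counts untreated), so the loss of Ldha and of Lyz2 cannot be told apart in any comparison of genotypes. Fewer cells of a type and less RNA per cell cannot be told apart in these bulk samples.

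Within the WT IFN-gamma group, replicate 1 differed from both other libraries. The chi-square per gene between its read counts and those of replicates 2 and 3 was 54.7 and 60.4, against 4.38 between replicates 2 and 3. Pairs within the other groups gave 10.4 to 60 (WT IL-4 pairs 42 to 60). Without it, 26 of 28 members were called with IFN-gamma in WT cells, where 58.5% of all genes were, but 24 were higher and 2 lower: H2-K2 and H2-M2 were gained and H2-Q10 and Mr1 lost. Between genotypes with IFN-gamma 6 were called, against 22% of all genes, with Psmb9 lost. For the difference of the IFN-gamma response 5 were called, against 8.63% of all genes, with H2-K2 gained. KO minus WT values with IFN-gamma went from 0.67 to 0.54 for Erap1, from 2.76 to 3.09 for H2-M2, from -0.86 to -0.68 for Mr1 and from 0.36 to 0.21 for Nlrc5, and all of these kept their side of the threshold. H2-D1 went from -0.07 to 0.05 and was called in neither fit.

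The upstream sequences of heavy chain genes are shown because genes with nearly the same elements differed widely in their response to IFN-gamma, and H2-M2 because its response differed between genotypes. Capitals mark matches, on either strand, to an NF-kB type motif (GGGATTCCC), interferon-type motifs (GAANNGAAA and GAAANNGAA), the core of the CRE (TGACG) and the CCAAT box (CCAAT). Each stretch is 100 bases of a RefSeq promoter window of GRCm38.p6, and all of it lies before RefSeq's start site; the last CC of H2-Q4 begins a further CCAAT. By the deposited table's coordinates H2-D1 begins further upstream, and its stretch lies in an exon of the gene (GENCODE M21), in an untranslated region, so its letters are not printed. All of the H2-Q4 stretch also lies in an exon of Gm11131, an antisense gene. The positions are chr17:34000359-34000458 (H2-K1, minus strand), chr17:35379464-35379563 (H2-Q4), chr17:35424676-35424775 (H2-Q6), chr17:35439020-35439119 (H2-Q7), chr17:37270103-37270202 (H2-M3), chr17:37483634-37483733 (H2-M2, minus strand) and chr2:122147539-122147638 (B2m), the others on the plus strand.
H2-K1: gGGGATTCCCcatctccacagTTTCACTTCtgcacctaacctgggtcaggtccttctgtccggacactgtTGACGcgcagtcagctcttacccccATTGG
H2-Q4: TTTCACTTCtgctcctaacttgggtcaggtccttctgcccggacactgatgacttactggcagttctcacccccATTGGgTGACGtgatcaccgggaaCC
H2-Q6: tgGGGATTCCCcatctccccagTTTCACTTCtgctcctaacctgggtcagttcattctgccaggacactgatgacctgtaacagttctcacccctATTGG
H2-Q7: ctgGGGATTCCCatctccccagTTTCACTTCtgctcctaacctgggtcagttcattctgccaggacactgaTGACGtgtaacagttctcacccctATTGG
H2-M3: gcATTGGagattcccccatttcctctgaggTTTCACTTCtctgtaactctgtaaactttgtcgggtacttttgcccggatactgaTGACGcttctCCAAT
H2-M2: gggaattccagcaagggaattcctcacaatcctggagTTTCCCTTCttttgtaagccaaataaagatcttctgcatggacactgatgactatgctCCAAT
B2m: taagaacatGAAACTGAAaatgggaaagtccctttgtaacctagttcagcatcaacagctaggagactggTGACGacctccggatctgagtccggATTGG

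Promoter windows of 300 bases were matched for 22 of the 31 members. Over the 75 bases from the interferon-type match onwards, without gaps, H2-D1 shared 65 bases with H2-K1, H2-Q4 64, H2-Q7 53, H2-Q6 52, H2-M3 29 and H2-M2 24. GGGATTCCC was present in 4 of the 22 members (H2-K1, H2-D1, H2-Q6 and H2-Q7) and in 0.353% of all 32851 windows. GAANNGAAA was present in 9 of 22 members and 7.52% of windows, and GAAANNGAA in 5 members and 8.56% of windows, and in Psme1 the matches of both overlap. TGACG was found in 11 members and 20.8% of windows, CCAAT in 14 members and 37.4% of windows, and the GAS motif TTCNNNGAA in 2 members (Psmb8 and H2-M3) and 8.3% of windows. The windows of Tap1 and Psmb9 share 275 bases, so their TGACG and CCAAT matches are the same letters counted for both genes. Heavy chain windows are also alike, so the members are not separate draws to set against the share of all windows. A match is a description of letters, not a bound site. The 100 bases with the most matched letters lay wholly in the gene's own exons for Erap1, Psme1, Psmb8, Psmb9 and H2-T23 (GENCODE M21). For Tap1 they lay in an exon of Psmb9, and for Tapbp 98 of them lay in an exon of Zbtb22. These matches were counted all the same. The windows do not cover H2-K2, Tap2, H2-Q1, H2-Q5, H2-T24, H2-T10, Cd1d1, Tapbpl and Nlrc5.

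In untreated WT macrophages, beta-2-microglobulin and both classical heavy chains had the highest levels per kb of exon. B2m (chr2:122147686-122153083) stood at 90546 ± 4782 normalized counts per kb (SD, n = 3). H2-D1 (chr17:35262730-35267499) stood at 42275 ± 2361 and H2-K1 (chr17:33996017-34000347) at 16651 ± 1078 normalized counts per kb. Those 3 did not overlap one another. Tapbp, the gene of tapasin, followed at 3326 ± 124 and H2-T23, the heavy chain of the nonclassical molecule Qa-1, at 2727 ± 164 normalized counts per kb. Psme2 (1706 ± 181) and Psme1 (1542 ± 113), the subunits of the PA28 activator of the proteasome, did not differ beyond their spread. Nlrc5, at 122 ± 2.16, and Mr1, at 107 ± 18.2 normalized counts per kb, were among the lowest of the tested members, above the Q and T genes H2-Q6 (82.3 ± 5.6), H2-Q5 (67.6 ± 1.5), H2-T10 (51 ± 2.21) and H2-Q7 (47 ± 5.43), then Cd1d1 (33.6 ± 4.35) and H2-Q10 (1.84 ± 0.395).

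**Figure D1:**
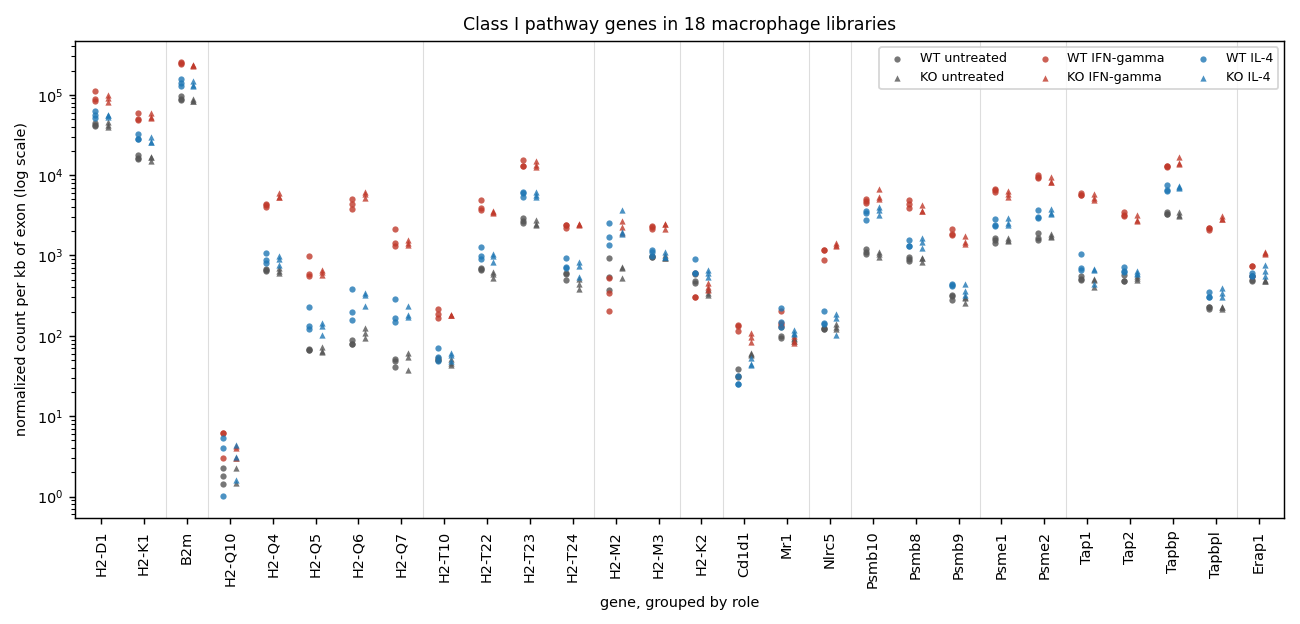
Each point is 1 of 18 libraries; the y axis is the normalized count per kb of exon on a log scale, the x axis the 28 tested genes by role, circles are WT and triangles KO, and colours are treatments. B2m, H2-D1 and H2-K1 lie highest in every group, and the IFN-gamma points of H2-Q6 and H2-Q7 lie more than an order of magnitude above their untreated points.

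IFN-gamma raised nearly the whole pathway in both genotypes. In WT cells 26 of 28 members were called and all 26 were higher, against a background of 62.4% of all genes called and 31.4% called higher. In KO cells 25 of 28 were called, all higher, against 55.8% called and 28.3% called higher. The median log2 change of the members was 2.08 in WT and 2.23 in KO cells, where the median of all genes was -0.01 in each. With the animal as a block all 28 members were called in WT cells, since H2-K2 (-0.41, adjusted p = 0.00412) and H2-M2 (-0.77, adjusted p = 0.00241) were then called lower. The share of all genes called in that fit is not given here, so that count has no background to be read against. H2-K2, annotated as a transcribed pseudogene, was 1012, 831 and 770 normalized counts in WT untreated and 1023, 523 and 518 in WT IFN-gamma libraries, with replicate 1 apart from the other IFN-gamma libraries. Without WT IFN-gamma replicate 1, H2-K2 was called lower (-0.73, adjusted p = 0.000871).

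Among the heavy chains that rose, H2-Q6 and H2-Q7 changed most and H2-D1 least. H2-K1 was 52378, 48227 and 46158 normalized counts in WT untreated libraries and 173405, 146783 and 141202 with IFN-gamma, a change of 1.65 ± 0.11 (adjusted p = 4.39e-10). KO values of H2-K1 were 44233, 49529 and 49865 untreated and 174232, 150239 and 154794 with IFN-gamma (1.74 ± 0.11). Untreated and IFN-gamma libraries of H2-K1 did not overlap, while those of WT and KO did.

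H2-D1 was 115806, 107252 and 104022 normalized counts in WT untreated libraries and 285869, 228321 and 217440 with IFN-gamma (1.15 ± 0.12, 2.22-fold). In KO cells H2-D1 went from 103774, 108704 and 118424 to 255487, 207223 and 232852 normalized counts (1.07 ± 0.12). IFN-gamma libraries of H2-D1 all lay above the untreated ones, and WT replicate 1 was the highest.

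H2-Q6 and H2-Q7 encode nonclassical molecules of the Qa-2 group, and they had the highest folds of all members. H2-Q6 was 185, 165 and 165 normalized counts in WT untreated libraries and 10591, 9011 and 7835 with IFN-gamma (5.72 ± 0.23, 52.7-fold, adjusted p = 6.28e-13). H2-Q7 was 208, 219 and 174 untreated and 9080, 6171 and 5584 with IFN-gamma in WT libraries (5.08 ± 0.23, 33.9-fold). No untreated library of either gene reached an IFN-gamma library. In KO cells the changes were 5.70 ± 0.23 for H2-Q6 and 4.85 ± 0.23 for H2-Q7. H2-Q6 and H2-Q7 hold the NF-kB type, interferon-type and CCAAT letters that H2-K1, printed above, and H2-D1 also hold.

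H2-Q5 rose by 3.33 ± 0.22 in WT and 3.19 ± 0.22 in KO cells, and H2-Q4, the gene of the Qb-1 molecule, by 2.67 ± 0.10 and 3.09 ± 0.10. H2-Q10 was near the lowest level tested, at 6.32 to 9.74 normalized counts in WT untreated and 13 to 27.1 in WT IFN-gamma libraries. Its change of 1.32 ± 0.50 in WT cells was called at adjusted p = 0.0284 and was no longer called without any 1 of 4 libraries (adjusted p = 0.0602 to 0.0933; WT untreated replicates 2 and 3, WT IFN-gamma replicates 1 and 2). In KO cells its 0.72 ± 0.50 was not called. The T genes rose by 1.89 (H2-T10) to 2.61 (H2-T22) in WT cells and by 1.95 (H2-T10) to 2.57 (H2-T22) in KO cells, and H2-T23, the Qa-1 gene, was at 2.34 and 2.42. H2-M3, whose product presents N-formylated peptides, rose by 1.21 ± 0.08 in WT and 1.30 ± 0.08 in KO cells.

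Some of these genes share sequence, and reads could be split between them. The share of 50-base words of the transcript found in another gene was 59.3% for Psme2, 35.8% for H2-T22, 35.4% for H2-Q5, 32% for H2-Q6, 31.6% for H2-T10, 28.4% for H2-Q7, 25.8% for Cd1d1, 22% for H2-Q4 and 19.7% for H2-Q10. It was 14.3% for H2-D1 and 8.11% for H2-K1. B2m, Nlrc5, Psmb8, Psmb9, Psmb10, Erap1 and Mr1 shared none. H2-T10 lies wholly within Gm7030 on the same strand, and Tapbp shares 3422 bases with Zbtb22 on the same strand. The sources used here do not say whether counting used strand, so B2m with Patl2, Tapbp with Gm19412, Tapbpl with Vamp1, Erap1 with Cast, and Psmb9 with Tap1 (212 bases of opposite strands) are uncertain to that extent. The same holds for Psmb10 with Gm16156 (2710 bases) and for Psmb8 and Tap2 with Gm20496 (2139 and 1923 bases). It also holds for H2-T24, H2-T23 and H2-T22 with A930015D03Rik (14866, 3083 and 1308 bases). Further opposite-strand overlaps were Tap2 with Gm15821, H2-Q4 with Gm11131, H2-T10 with BC023719, Nlrc5 with 9330175E14Rik and Psme1 with Emc9.

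B2m, the light chain of every class I molecule, rose in both genotypes. Its values in WT libraries were 74506, 76649 and 82454 normalized counts untreated and 217304, 213690 and 207086 with IFN-gamma (1.45 ± 0.10, 2.73-fold). In KO libraries they were 70947, 72570 and 75635 untreated and 194637, 201008 and 202586 with IFN-gamma (1.45 ± 0.10). IFN-gamma libraries lay above untreated libraries without overlap, and the KO minus WT difference of the response was 0.00 ± 0.14 (adjusted p = 0.996).

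Nlrc5 encodes the transactivator of class I genes. Its WT values were 1056, 1021 and 1029 normalized counts untreated and 7359, 10033 and 10035 with IFN-gamma (3.13 ± 0.18). Its KO values were 1026, 1095 and 1189 untreated and 11600, 12199 and 11145 with IFN-gamma (3.40 ± 0.18). With IFN-gamma each KO library lay above each WT library, but the difference of 0.36 ± 0.18 was not called (adjusted p = 0.146). Without KO IL-4 replicate 1 it was called at adjusted p = 0.0493.

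The immunoproteasome genes Psmb8, Psmb9 and Psmb10, which encode the subunits that replace the standard catalytic subunits, all rose. Psmb8 was 3220, 3077 and 2886 normalized counts in WT untreated and 16613, 14762 and 13234 in WT IFN-gamma libraries (2.28 ± 0.11). In KO libraries Psmb8 was 2825, 3137 and 3119 untreated and 14463, 12264 and 11945 with IFN-gamma (2.09 ± 0.11). Psmb8 libraries of the treatments did not overlap in either genotype. Psmb9 changed by 2.65 ± 0.11 in WT and 2.42 ± 0.11 in KO cells, and Psmb10 by 2.09 ± 0.12 and 2.46 ± 0.12. Psme1 and Psme2 rose by 2.06 ± 0.09 and 2.49 ± 0.09 in WT and by 1.88 ± 0.09 and 2.27 ± 0.09 in KO cells.

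The loading genes moved by 1.95 to 3.46 in WT cells. Tap1, a chain of the peptide transporter, was 3066, 2776 and 2717 normalized counts untreated and 32889, 30634 and 30604 with IFN-gamma in WT libraries (3.46 ± 0.16). In KO libraries Tap1 was 2232, 2801 and 2730 untreated and 31887, 28470 and 26987 with IFN-gamma (3.5 ± 0.16). Every IFN-gamma library of Tap1 lay far above every untreated one. Tap2, the other chain, rose by 2.67 and 2.46, Tapbp by 1.95 and 2.19, and Tapbpl, the gene of the tapasin relative TAPBPR, by 3.27 and 3.69 in WT and KO cells.

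IL-4 raised much of the pathway too, to a smaller extent. Of 28 members 21 were called in WT and 20 in KO cells, all of them higher, against backgrounds of 30.3% called and 16.3% called higher in WT and 30.2% called and 15.8% called higher in KO cells. The median log2 change of the members was 0.60 in WT and 0.67 in KO cells, beside -0.01 and 0.00 for all genes. The IFN-gamma and IL-4 comparisons share their untreated libraries. With the animal as a block the counts were 22 and 22, with H2-K2 gained in WT and Mr1 and Tap2 gained in KO cells. The shares of all genes called in those block fits are not given here.

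H2-Q7 had the largest change with IL-4, from 208, 219 and 174 to 1221, 632.8 and 708 normalized counts in WT libraries (2.03 ± 0.23, adjusted p = 2.39e-06). In KO libraries H2-Q7 changed from 162, 230 and 260 to 725, 994 and 776 (1.94 ± 0.23). IL-4 replicate 1 of WT was the highest of the IL-4 libraries. H2-M2, a nonclassical gene of the distal M region, rose by 1.65 ± 0.35 in WT and 1.88 ± 0.35 in KO cells, and H2-Q6 by 1.48 ± 0.23 and 1.44 ± 0.23.

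Psmb10 stood out among the immunoproteasome genes with IL-4. It was 1892, 2026 and 1784 normalized counts in WT untreated and 4688, 6138 and 5830 in WT IL-4 libraries (1.54 ± 0.12, adjusted p = 3.17e-08). In KO libraries Psmb10 was 1649, 1876 and 1786 untreated and 6934, 6325 and 5405 with IL-4 (1.81 ± 0.12). Untreated and IL-4 libraries of Psmb10 did not overlap. The changes of Psmb8 were 0.63 ± 0.11 and 0.71 ± 0.11 and those of Psmb9 0.50 ± 0.11 and 0.38 ± 0.11 in WT and KO cells. The difference between these genes was not tested.

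H2-K1 rose by 0.82 ± 0.11 and 0.73 ± 0.11, B2m by 0.64 ± 0.10 and 0.68 ± 0.10, H2-T23 by 1.11 ± 0.09 and 1.16 ± 0.09 and Tapbp by 1.02 ± 0.09 and 1.13 ± 0.09 in WT and KO cells with IL-4. H2-D1 rose by 0.42 ± 0.12 (adjusted p = 0.0158) and 0.38 ± 0.12 (adjusted p = 0.0298), calls that were lost without any 1 of 3 libraries in WT (WT untreated replicates 2 and 3, WT IL-4 replicate 1; adjusted p = 0.0518 to 0.0636) and any 1 of 4 in KO cells (KO untreated replicates 1 and 2, KO IL-4 replicates 1 and 2; adjusted p = 0.0754 to 0.106). Tap1 was called in WT cells (0.59 ± 0.16, adjusted p = 0.00892) and not in KO cells (0.31 ± 0.16, adjusted p = 0.154). Without KO IL-4 replicate 1 it was called in KO cells as well (0.51, adjusted p = 0.0165), and the difference of both responses was -0.27 ± 0.22 (adjusted p = 0.999). Nlrc5 was not called with IL-4 (0.40 ± 0.18 in WT, 0.19 ± 0.18 in KO). Without KO IL-4 replicate 1 it was called in both (0.40, adjusted p = 0.0293, and 0.45, adjusted p = 0.0345). H2-M3, H2-T10, H2-Q10 and Cd1d1 were not called in either genotype, though H2-Q10 was called in WT cells without WT IL-4 replicate 3 (1.24, adjusted p = 0.0429).

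Some IL-4 calls depended on which libraries were in the fit. H2-K2 was called in KO cells (0.77 ± 0.21, adjusted p = 0.00975) and not in WT cells (0.46 ± 0.21, adjusted p = 0.114). Without WT IFN-gamma replicate 1, a library outside that comparison, the WT value was unchanged and was called (adjusted p = 0.0219). In WT cells Mr1 (0.60 ± 0.17) was not called without WT untreated replicate 2 or 3 or WT IL-4 replicate 1 (0.38 to 0.56, adjusted p = 0.0549 to 0.072), and H2-T24 (0.46 ± 0.14) was not called without WT untreated replicate 2 or WT IL-4 replicate 1 (adjusted p = 0.0892 to 0.1). In KO cells Psmb9 was not called without KO untreated replicate 1 or KO IL-4 replicate 2 (adjusted p = 0.0741 to 0.0933).

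**Figure D2:**
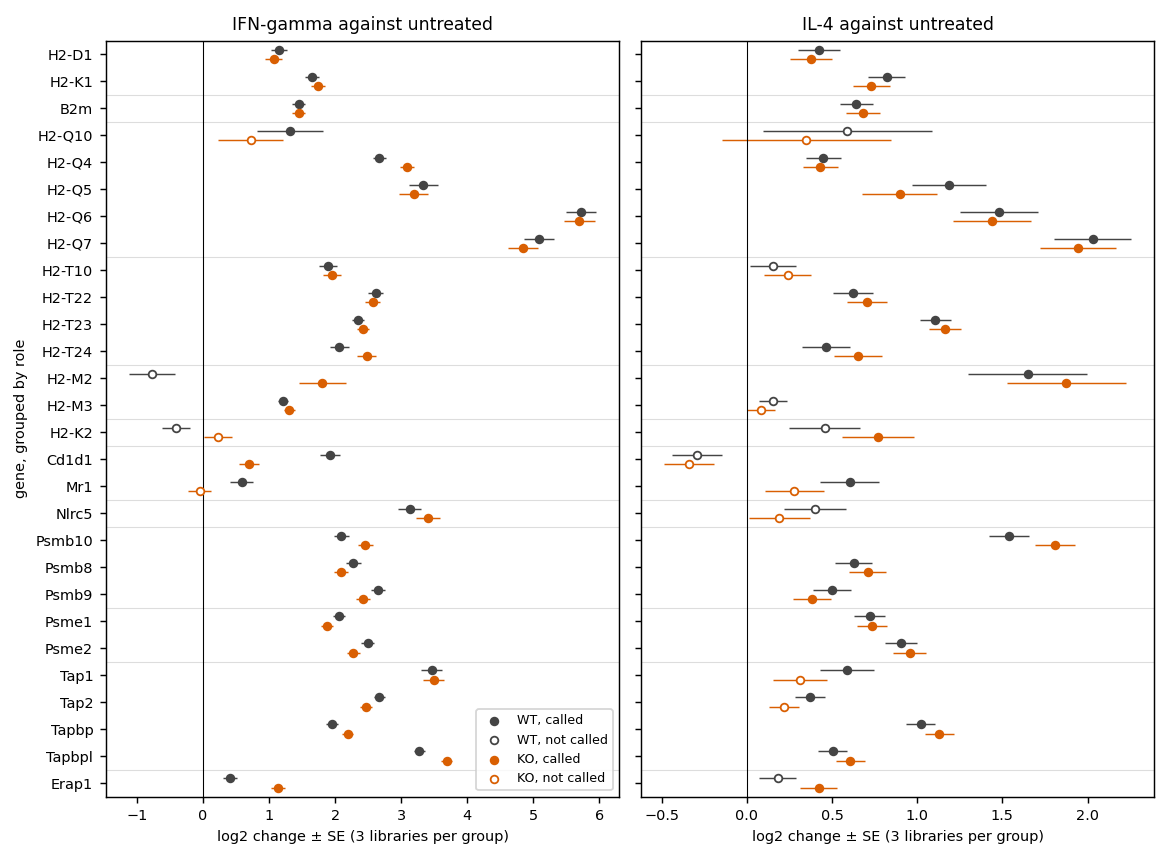
Points are log2 changes against untreated with bars of 1 SE, for WT (grey) and KO (orange) and for IFN-gamma (left) and IL-4 (right), each from 3 libraries per group; filled points were called. The IFN-gamma changes of H2-Q6 and H2-Q7 are the largest, H2-M2 lies on opposite sides of 0 in WT and KO cells with IFN-gamma, and the axes of both panels have different ranges.

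Few members were called between genotypes. In untreated cells 1 of 28 members was called, against 1.98% of all genes. With IFN-gamma 7 of 28 were called, against 27.9% of all genes, a share near the background. With IL-4 1 of 28 was called, against 6.59% of all genes. Members' median log2 differences were -0.03, -0.06 and -0.04, beside 0.01 for all genes in each treatment. WT and KO libraries did not overlap for 13 of 28 members with IFN-gamma, and the share over all genes is not given here. Of those, Tapbp, Psmb10, H2-T22, B2m, H2-Q6 and Nlrc5 were not called.

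The classical molecules and their light chain were not called in any treatment. KO minus WT values with IFN-gamma were 0.06 ± 0.11 for H2-K1, -0.07 ± 0.12 for H2-D1 and -0.09 ± 0.10 for B2m. Under quantile normalization H2-D1 (-0.57, adjusted p = 0.019) and B2m (-0.34, adjusted p = 0.036) were called lower with IFN-gamma and Tapbp (0.28, adjusted p = 0.0209) higher. Tap1 was at -0.11 ± 0.16, Tap2 at -0.16 ± 0.09 and Psmb8 at -0.21 ± 0.11, and those were not called.

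H2-M2 (chr17:37480851-37483552) differed most between genotypes with IFN-gamma. WT libraries had 821, 531 and 320 and KO libraries 4199, 3464 and 2970 normalized counts (2.76 ± 0.35, 6.76-fold, adjusted p = 2.23e-05). No KO library overlapped a WT library. Untreated libraries, at 1444, 839 and 570 in WT and 1086, 1126 and 821 in KO, overlapped, and so did those with IL-4 (3885, 2098 and 2609 against 3080, 5674 and 2845). The response to IFN-gamma was -0.77 ± 0.35 in WT (adjusted p = 0.0645) and 1.81 ± 0.35 in KO cells (adjusted p = 0.000259). The difference of the responses was 2.58 ± 0.49 (adjusted p = 0.00333). The WT change was called without WT untreated replicate 3 (-1.08, adjusted p = 0.0176) or without WT IFN-gamma replicate 1 (-1.10, adjusted p = 0.0141).

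Cd1d1 (chr3:86995834-86999441) encodes CD1d, which presents lipids to natural killer T cells. Untreated WT libraries had 80.9, 99.2 and 79 and KO libraries 157, 149 and 152 normalized counts (0.82 ± 0.15, 1.77-fold, adjusted p = 0.00497). With IL-4 they had 65.5, 82 and 63.8 in WT and 136, 115 and 112 in KO (0.77 ± 0.15, adjusted p = 0.00423). With IFN-gamma the order was the opposite, 298, 347 and 341 in WT and 278, 218 and 251 in KO (-0.40 ± 0.15, adjusted p = 0.0496). Genotypes did not overlap in any of the 3 treatments. The IFN-gamma response was 1.92 ± 0.15 in WT and 0.70 ± 0.15 in KO cells, a difference of -1.22 ± 0.21 (adjusted p = 0.00133). The IFN-gamma difference of genotypes was no longer called with the replicate number as a block (adjusted p = 0.0575) or with TMM-type factors (adjusted p = 0.0533). The call was also lost under quantile normalization (adjusted p = 0.0571) and without a filter on low values (adjusted p = 0.0754). It was lost in a fit of the compared libraries alone (adjusted p = 0.0715) and without any 1 of 11 libraries (-0.41 to -0.31, adjusted p = 0.0514 to 0.188). The 11 were WT untreated replicates 1 and 3, KO untreated replicates 1, 2 and 3, WT IFN-gamma replicates 2 and 3, KO IFN-gamma replicates 2 and 3 and KO IL-4 replicates 2 and 3. The IL-4 difference was not called in a fit of the compared libraries alone (adjusted p = 0.169).

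Erap1 (chr13:74639568-74693201), the peptide-trimming gene, was 4034, 5429 and 5313 normalized counts in WT and 7553, 8079 and 7756 in KO libraries with IFN-gamma (0.67 ± 0.11, 1.6-fold, adjusted p = 0.00022). No library of one genotype overlapped the other. Untreated values were 3574, 3490 and 4004 in WT and 3529, 3551 and 3582 in KO libraries and overlapped (-0.05 ± 0.11). The response to IFN-gamma was 0.41 ± 0.11 in WT and 1.13 ± 0.11 in KO cells, a difference of 0.73 ± 0.15 (adjusted p = 0.0065). Under quantile normalization the WT response was 0.08 and was not called (adjusted p = 0.518).

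Tapbpl (chr6:125223933-125231860), which edits the peptides that class I molecules carry, was 5213, 5217 and 4881 in WT and 7284, 6712 and 6598 normalized counts in KO libraries with IFN-gamma (0.43 ± 0.08, 1.34-fold, adjusted p = 0.00134). All KO libraries lay above all WT libraries. Untreated, the values of 508, 536 and 539 in WT and 538, 514 and 543 in KO libraries overlapped. The difference of the responses was 0.42 ± 0.12 (adjusted p = 0.0374), a call that was lost without a filter on low values (adjusted p = 0.0553) or without any 1 of 9 libraries (0.37 to 0.43, adjusted p = 0.052 to 0.0958). The 9 were WT untreated replicates 2 and 3, KO untreated replicates 1, 2 and 3, WT IFN-gamma replicates 2 and 3 and KO IFN-gamma replicates 1 and 2.

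H2-Q4 was 11410, 11049 and 10443 in WT and 15425, 13968 and 13706 normalized counts in KO libraries with IFN-gamma (0.39 ± 0.10, 1.31-fold, adjusted p = 0.00872), without overlap. Mr1, whose product presents vitamin B2 metabolites to mucosal-associated invariant T cells, was 1224, 825 and 869 in WT and 484, 509 and 592 in KO libraries (-0.86 ± 0.17, adjusted p = 0.00146). WT and KO libraries of Mr1 did not overlap, and WT replicate 1 was the highest. The IFN-gamma response of Mr1 was called in WT (0.59 ± 0.17) and not in KO cells (-0.05 ± 0.17); without WT IFN-gamma replicate 1 it was not called in WT either (0.41, adjusted p = 0.0504). The difference of both responses was -0.64 ± 0.25 (adjusted p = 0.12), and with the animal as a block it was called (adjusted p = 0.00161), as was that of H2-K2 (0.63, adjusted p = 0.0134). Without WT IL-4 replicate 1, Mr1 (adjusted p = 0.0479) and H2-Q4 (0.42, adjusted p = 0.0398) were called in that difference, and without WT IFN-gamma replicate 1, H2-K2 was (0.95, adjusted p = 0.0109). With IL-4 Mr1 was at -0.55 ± 0.17 between genotypes (adjusted p = 0.069), and with the replicate number as a block it was called (adjusted p = 0.0404), as it was without WT IFN-gamma replicate 1 (adjusted p = 0.0362) or WT IL-4 replicate 2 (-0.71, adjusted p = 0.0249). Without WT IL-4 replicate 1, H2-Q6 was called with IL-4 (0.73, adjusted p = 0.013).

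Psmb9 was 7857, 6810 and 6525 in WT and 6331, 5355 and 5114 normalized counts in KO libraries with IFN-gamma (-0.34 ± 0.11, adjusted p = 0.0311). Every KO library lay below every WT library. The call was lost without WT IFN-gamma replicate 1 (-0.26, adjusted p = 0.135), KO IFN-gamma replicate 2 (-0.31, adjusted p = 0.0964) or KO IFN-gamma replicate 3 (-0.27, adjusted p = 0.12). It was also lost under quantile normalization (-0.30, adjusted p = 0.0559) and in a fit of the compared libraries alone (adjusted p = 0.0607).

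**Figure D3:**
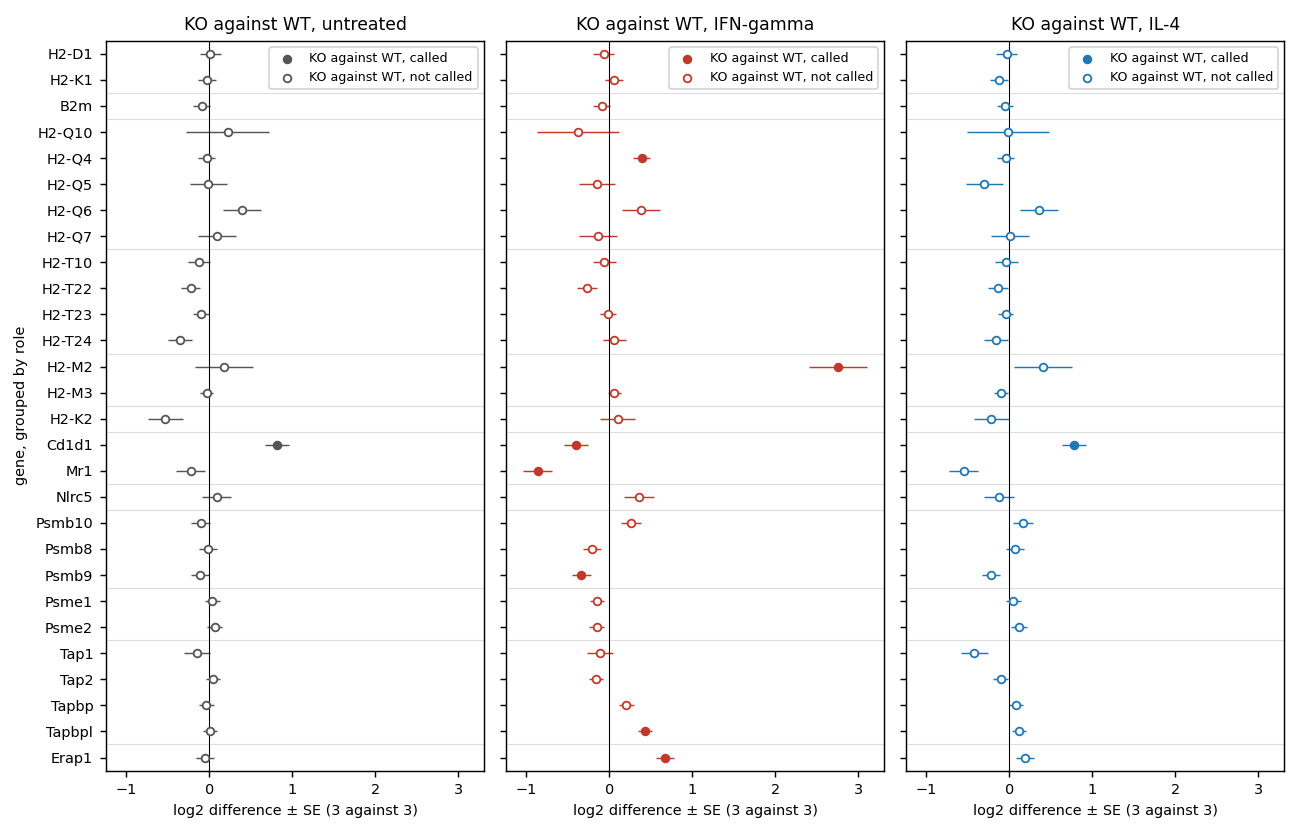
Points are log2 differences of KO against WT with bars of 1 SE in untreated, IFN-gamma and IL-4 libraries, 3 against 3 in each panel; filled points were called. Most points lie near 0, H2-M2 with IFN-gamma stands at 2.76, and Cd1d1 is above 0 in untreated and IL-4 panels and below 0 with IFN-gamma.

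The difference of the IFN-gamma response between genotypes was called for 4 of 28 members, against 9.15% of all genes: H2-M2, Erap1 and Tapbpl with a larger response in KO cells, and Cd1d1 with a smaller one. The difference of the IL-4 response was called for 0 of 28 members, against 0.007% of all genes, which is 1 gene. By limma 0 members had an unadjusted p under 0.05 in that comparison, 774 genes in all did, and edgeR and DESeq2 also called 0 members.

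**Figure D4:**
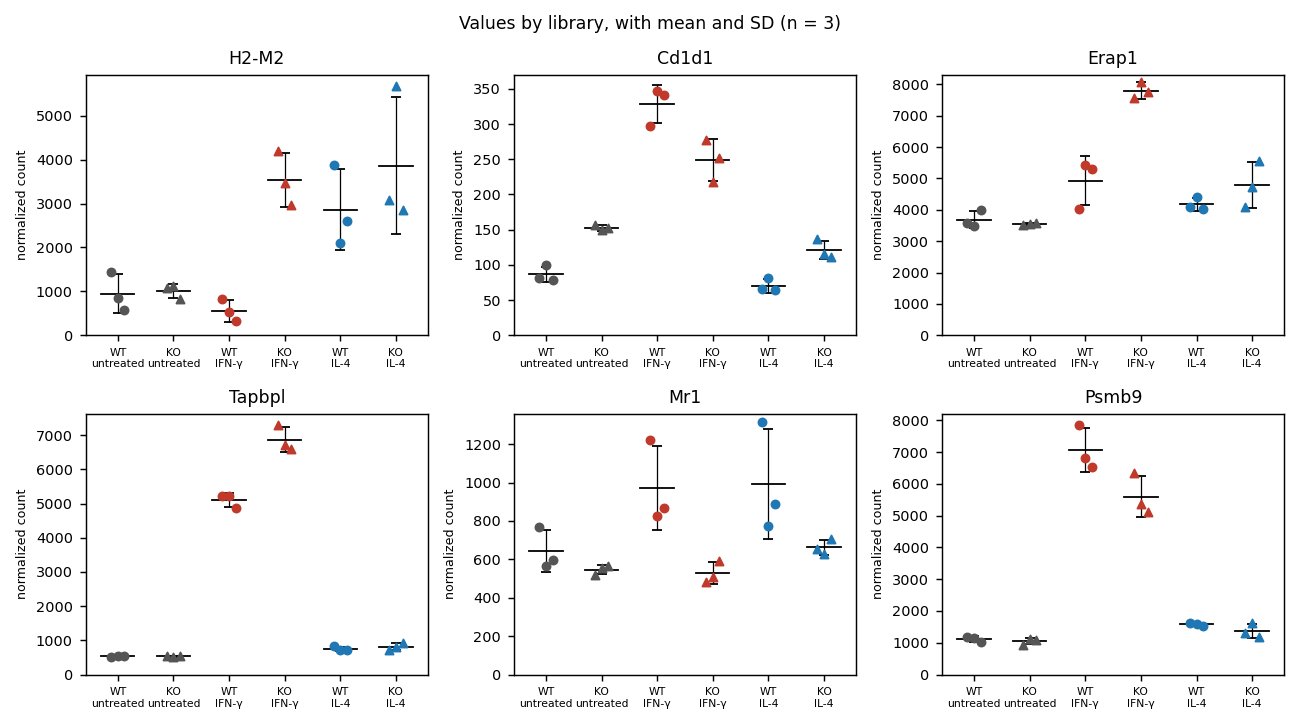
Normalized counts of H2-M2, Cd1d1, Erap1, Tapbpl, Mr1 and Psmb9 in each of 18 libraries, by genotype and treatment; black lines are the mean and SD of 3 libraries. With IFN-gamma WT and KO points are separate in all 6 panels, and H2-M2 spreads widely in the WT untreated and both IL-4 groups. All 6 genes were called between genotypes with IFN-gamma, so this separation follows in part from the choice of genes.

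RNA levels of immunoproteasome subunits were set against those of standard subunits as a ratio of levels per kb in each library. These ratios describe RNA, and the subunits of assembled proteasomes were not measured. Their absolute size depends on the exon lengths used for each gene. Psmb8 over Psmb5 was 1.31 ± 0.066 in WT untreated, 3.05 ± 0.121 with IFN-gamma and 1.19 ± 0.0369 with IL-4 (SD, n = 3). Psmb9 over Psmb6 was 0.138 ± 0.00486, 0.594 ± 0.0246 and 0.115 ± 0.00967 in the same WT groups. Psmb10 over Psmb7 was 3.67 ± 0.281, 6.21 ± 0.4 and 8.25 ± 0.536. Of these 3 ratios, this was the one in which the WT IL-4 libraries lay above all WT untreated libraries, and they also lay above the WT IFN-gamma libraries.

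In KO libraries Psmb8 over Psmb5 was 1.02 ± 0.0376 untreated and 2.4 ± 0.159 with IFN-gamma, below WT libraries without overlap in both. Untreated, Psmb8 itself differed by -0.02 ± 0.11 between genotypes and overlapped, and Psmb5 by 0.345 ± 0.118 (limma, adjusted p = 0.18). With IFN-gamma Psmb8 was at -0.21 and Psmb5 at 0.14, and neither gene was called in either treatment. Psmb9 over Psmb6 was 0.405 ± 0.013 in KO IFN-gamma libraries, 0.682 of the WT mean, again without overlap. Psmb6 itself was at 0.215 between genotypes with IFN-gamma and was not called. Psmb10 over Psmb7 was 7.07 ± 0.454 in KO IFN-gamma libraries and overlapped the WT values. The exact permutation test of 3 against 3 gave a two-sided p of 0.1 for each of those separate pairs, the smallest it allows, so none of the 63 comparisons of 9 ratios could pass 0.05.

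**Figure D5:**
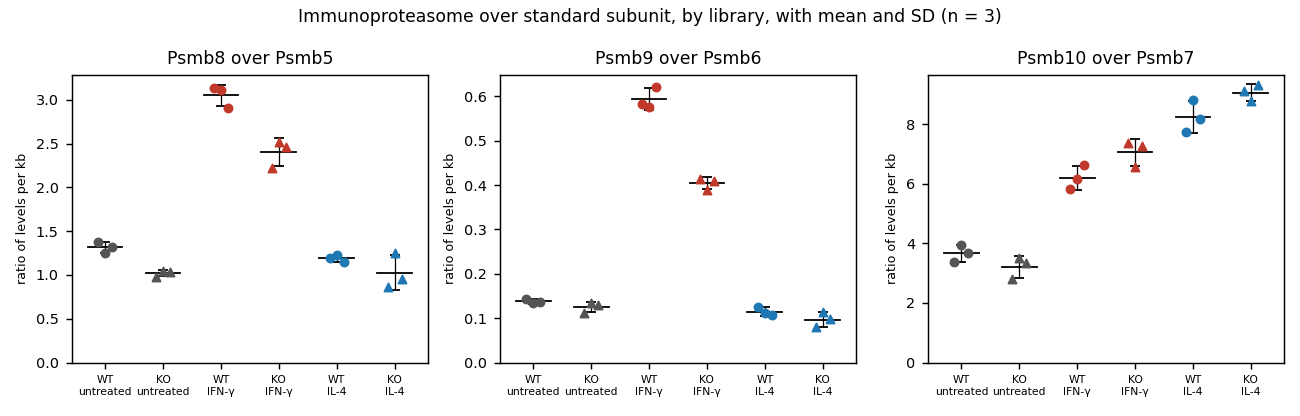
Ratio of the level per kb of each immunoproteasome gene to the standard subunit it replaces, in each of 18 libraries, with the mean and SD of 3; every y axis starts at 0. Psmb10 over Psmb7 is highest with IL-4, while Psmb8 over Psmb5 and Psmb9 over Psmb6 are high with IFN-gamma alone.

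The make-up of the heavy chain signal was also measured. The sum left out H2-K2 and included H2-Q5 and H2-T10, which are annotated as polymorphic pseudogenes. H2-K1 and H2-D1 together held 90.1 ± 0.153% of the summed level per kb of heavy chain genes in WT untreated, 81.1 ± 0.491% in WT IFN-gamma and 87.6 ± 0.549% in WT IL-4 libraries. The Q genes held 1.32 ± 0.0899% untreated and 6.05 ± 0.138% with IFN-gamma in WT, and 1.35 ± 0.0762% and 7.32 ± 0.486% in KO libraries. The T genes held 6.15 ± 0.064% untreated and 11.4 ± 0.46% with IFN-gamma in WT libraries. The M genes H2-M2 and H2-M3 held 1.45 ± 0.0737% in WT and 2.56 ± 0.271% in KO IFN-gamma libraries, with no overlap. The summed heavy chain level over that of B2m was 0.725 ± 0.0787 untreated and 0.731 ± 0.08 with IFN-gamma in WT libraries and overlapped. Each of the separate pairs had the exact permutation p of 0.1.

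Other genes of the pathway were counted in lists. All 6 genes of the standard catalytic subunits, other activators and assembly (Psmb5, Psmb6, Psmb7, Psme3, Psme4 and Pomp) rose with IFN-gamma in WT cells and 5 of 6 in KO cells, with medians of 0.95 and 0.84, beside 31.4% and 28.3% of all genes called higher. Pomp, the assembly chaperone of the proteasome, rose by 1.34 in WT cells. With IL-4 4 of 6 and 5 of 6 were called higher, beside 16.3% and 15.8% of all genes. Between genotypes 0 of the 6 were called by limma, edgeR or DESeq2 in any treatment, where 1 untreated, 0 with IFN-gamma and 2 with IL-4 had an unadjusted p under 0.05 in limma.

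Of 5 folding genes of the endoplasmic reticulum, 3 rose and 2 fell with IFN-gamma in WT cells, where 62.4% of all genes were called. Among them were Calr, the gene of calreticulin, at 0.38 and Canx, the gene of calnexin, at -0.23. With IL-4 4 of 5 rose in each genotype, Calr by 0.95 in WT cells, where 16.3% of all genes in WT and 15.8% in KO cells were called higher. Of 6 tested peptidase genes 2 rose and 2 fell with IFN-gamma in WT cells. That is a share near the background of 62.4%. Lap3, leucine aminopeptidase, was at 1.22 and Thop1, thimet oligopeptidase, which degrades peptides in the cytosol, at -0.99. Canx (0.24, adjusted p = 0.0148) and Thop1 (0.45, adjusted p = 0.0312) were higher in KO than in WT cells with IFN-gamma.

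Of 18 genes that regulate class I transcription, 13 rose and 1 fell with IFN-gamma in WT cells, and 12 rose and 2 fell in KO cells, where 31.4% and 28.3% of all genes were called higher. Irf1 changed by 5.20 in WT and 5.14 in KO cells. Between genotypes with IFN-gamma 8 of the 18 were lower and 2 higher in KO cells (median -0.12), where 27.9% of all genes were called. Lower were Ifngr1, a chain of the IFN-gamma receptor (-0.87 ± 0.08, adjusted p = 1.29e-06), Irf8 (-0.74), Rfx5 (-0.56), Nfyb (-0.54), Irf2 (-0.51), Creb1 (-0.38), Irf1 (-0.30) and Nfkb1 (-0.26). Higher were Nfyc (0.52) and Rela (0.33). Ifngr1 was also lower with IL-4 (-0.61, adjusted p = 0.000304). The difference of the IFN-gamma response was called for Ifngr1 (-0.70, adjusted p = 0.00134), Irf8 (-0.59, adjusted p = 0.00107) and Irf2 (-0.49, adjusted p = 0.0239).

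Levels of cell type markers were set beside these results. All 7 macrophage markers were measured, and their summed level was 242959 to 254601 normalized counts in WT untreated, 233608 to 262596 in KO untreated, 244614 to 271666 in WT IFN-gamma, 203470 to 218438 in KO IFN-gamma, 224072 to 244128 in WT IL-4 and 180781 to 201596 in KO IL-4 libraries. The sum hides opposite moves: with IFN-gamma 2 markers were called higher and 3 lower in KO cells, where 27.9% of all genes were called. Csf1r (70954 against 58368 on average) and Cd68 (28271 against 21586) were higher in KO than in WT IFN-gamma libraries. Cd14, which varied widely in WT (63877, SD 28147), was lower in KO (27376). Itgam (2168 against 3411), Fcgr1 (21304 against 30186), Mertk (9255 against 12239) and Adgre1 (53390 against 65532) were also lower in KO on average. With IL-4 0 were called higher and 3 lower, where 6.59% of all genes were called. The 5 measured of 7 dendritic cell markers summed to 18.4 to 26.2 in WT untreated, 26.1 to 42.4 in KO untreated, 1520 to 2555 in WT IFN-gamma, 1064 to 1351 in KO IFN-gamma, 23 to 59 in WT IL-4 and 110 to 142 in KO IL-4 libraries, of which Clec9a and Xcr1 made up most with IFN-gamma. Clec9a and Xcr1 averaged 1266 and 788 in WT and 714 and 169 in KO IFN-gamma libraries. Ccr7 (103 in WT, 258 in KO) and Zbtb46 (7.93 and 11.4) went the other way, and Itgae was at 23 and 23.8. Of the 5, 1 was called higher and 1 lower in KO cells with IFN-gamma, where 27.9% of all genes were called. The 5 measured of 7 stromal markers summed to 154 to 392.4, 344 to 1263, 136 to 228, 195 to 734, 180 to 673 and 399 to 1228, in the order of groups used for the sums above. T and NK (1 measured of 7), B cell (2 of 4) and neutrophil markers (3 of 7) summed to at most 14.7, 16.5 and 63.5 in any library, and Klrb1c was at 0 in every WT IFN-gamma library. The 3 endothelial markers reached a sum of 1684 to 1754 in WT and 3551 to 4503 in KO IFN-gamma libraries, of which Kdr made up 1329 and 3803 on average. Pecam1 went the other way, at 367 in WT and 173 in KO on average, and Cdh5 was low at 15.5 and 21.5. Of the 3, 1 was called higher and 1 lower in KO cells, where 27.9% of all genes were called. The part of those shifts in the differences of the class I genes was not tested.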

How the data were processed

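RNA was sequenced from 18 libraries (NEB Next Ultra II Directional kit with poly A selection, per the labels' protocols). The submitters' processing notes name STAR 2.5 with GRCm38, HTSeq 0.6 for counting, and DESeq2 and edgeR without versions. The deposited table of 21428 rows holds a signal in normalized counts, which the authors made by dividing read counts by a size factor per library. Of its 21380 gene identifiers 34 were repeated and used once. Division of each column by its step returned whole reads (100% of values, tolerance 0.1), which were used in the count tests. Normalized columns summed to 27.0 to 35.4 M.

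Log2(value + 1) of genes with at least 10 in at least 3 libraries was fitted with limma 3.58.1 (R 4.3.3, 6 group means, 12 residual degrees of freedom, trend), in 9 comparisons with two-sided moderated tests and Benjamini-Hochberg adjustment over 14288 genes. The script was tested on simulated data. Levels per kb used the union of exons of GENCODE M21; promoter windows are RefSeq's. Genes were named by rule: H2-K1, H2-D1, B2m, Tap1, Psmb8, Psmb9 and Nlrc5, all members called between genotypes or in the differences, and up to 10 others with the largest changes in each response. Members, lists and tests were chosen with earlier results of these data known.

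Pairing was checked on deviations from group means. Libraries of the same animal (18 pairs) correlated across genes at 0.0036 to 0.24 (13 over 0.1), and the animal codes in the labels make responses paired. KO and WT libraries with the same number come from different animals (-0.21 to 0.10). Replicates of every group differed by more than sampling noise, WT IFN-gamma replicate 1 most within its group. Alternatives were other pseudocounts (0.5, 5), no filter, quantile normalization, TMM-type factors, a minimum mean of 50, edgeR 4.0.16, DESeq2 1.42.0, the compared libraries alone, a replicate block, and leaving out each library.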

Additional observations from a re-analysis of the deposited data

Results flagged for a closer look

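For 4 of 28 members the response to IFN-gamma differed between KO and WT cells by the test of the difference itself. That limma test was adjusted over all genes, of which 9.15% were called. With the animal as a block Mr1 (adjusted p = 0.00161) and H2-K2 (adjusted p = 0.0134) were called in that difference as well. For H2-M2 the KO minus WT difference of the response was 2.58 on the log2 scale, and it was 2.22 to 2.91 over all alternatives (adjusted p = 2.61e-05 to 0.0126). For Cd1d1 it was -1.22 (-1.32 to -1.13, adjusted p = 5.64e-07 to 0.00553). For Erap1 it was 0.73 (0.59 to 0.80, adjusted p = 0.000409 to 0.0228). For Tapbpl it was 0.42 (0.37 to 0.45, adjusted p = 0.00641 to 0.0958). Groups of 3 libraries are too small for a test of single outlying samples.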

How the results depend on the processing

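In a fit of the compared libraries alone, 2 members were called between genotypes untreated (Cd1d1, and H2-K2 at -0.53) and 0 with IL-4. With IL-4, 2 members were called by edgeR, 2 by DESeq2 and 2 with the replicate block, and 1 to 2 without single libraries; Mr1 was the gene added, except without WT IL-4 replicate 1, where it was H2-Q6. All other counts of called members stayed within 1.5 times. Between genotypes with IFN-gamma they ran from 5 to 8, and with the replicate block 6 were called. Without single libraries the counts were 1 untreated, 25 to 26 and 25 for IFN-gamma in WT and KO, 18 to 22 and 18 to 21 for IL-4, and 3 to 6 and 0 for the differences of the IFN-gamma and IL-4 responses. Paired by animal, the difference of the IFN-gamma response was called for 6 members. The counts in this section stand without the share of all genes called in each fit. Of 3220 values of 115 gene results under 28 alternatives, 44 lost and 6 gained a call, and 0 called values turned direction. A further 39 values of 18 results, called neither way, had the other sign. Under quantile normalization Erap1 was no longer called with IFN-gamma in WT cells (0.08, adjusted p = 0.518). The 3 libraries per group limit precision, and H2-Q10 rests on 29 to 62 reads per group. The causes of these changes were not tested.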
